A study of Mus musculus with 8 samples.

Results

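The genes described here encode products of the endometrial glands, the tubular epithelial glands of the uterine lining. They are the chemokine gene Cxcl15, the trypsin inhibitor gene Spink1, the carrier protein gene Ttr, the protease genes Prss28 and Prss29, the sulfotransferase gene Sult1d1, the whey acidic protein family gene Wfdc3 and the demilune cell protein genes Dcpp1 and Dcpp2. Members were the probe sets paired with 1 of 10 listed symbols and no other, with the brightest probe set on average standing for a gene. That gave 9 genes of 19938 measured. The tenth symbol, Spink3, was absent, and the RefSeq gene table lists it as a synonym of Spink1.

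RNA of the whole uterus was measured on 8 microarrays, 1 per female mouse. The 4 Foxa2-deleted mice (PgrCre/+ Foxa2flox/flox) had both Foxa2 alleles floxed and Cre recombinase at 1 of their Pgr alleles, which confines Cre to cells expressing the progesterone receptor gene. The 4 controls (Pgr+/+ Foxa2+/+) had neither Cre nor floxed alleles, and Foxa2 loss, Cre and the loss of 1 intact Pgr allele therefore cannot be told apart. Every female had mated with a vasectomised male and was sampled on day 3.5 of pseudopregnancy, with the plug counted as day 0.5. The sources used here give neither age nor strain.

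Endometrial glands secrete growth factors, enzymes, carriers and inhibitors into the uterine lumen, and in mice the embryo depends on these products at implantation. FOXA2 is a forkhead transcription factor that in the mouse uterus marks the gland cells and not the cells lining the lumen. A whole uterus also holds stroma, smooth muscle, vessels and leukocytes, so that in these data fewer gland cells and less RNA per gland cell cannot be told apart.

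The Foxa2 probe set itself read 8.22, 8.20, 8.21 and 8.21 in deleted uteri, against 8.61, 8.82, 8.74 and 8.73 in control uteri, on the log2 intensity scale used throughout. It fell by 0.52 (SE 0.05, adjusted p = 0.0013), and the sources used here do not say where its probes lie relative to the floxed stretch. The Pgr probe set rose by 0.37 (SE 0.10, adjusted p = 0.0428), a call that 6 of the 8 single-array omissions ended. Uterine genes were checked without a detection call. The estrogen receptor gene Esr1 averaged 11.97 ± 0.12 in deleted and 11.87 ± 0.015 in control uteri, and the uterine patterning gene Hoxa10 averaged 10.64 ± 0.29 in deleted and 10.91 ± 0.06 in control uteri (SD, n = 4 each). Deleted uteri were less alike, with correlations between arrays across genes of 0.9805 to 0.99 against 0.9961 to 0.9968 among control uteri. Array medians lay between 8.25 and 8.32.

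Some gland products were called lower in deleted uteri and others were not. Of the others Dcpp1 and Dcpp2 were among the dimmest 25% of all genes, and so was Prss28 of those called. A gene was called at a Benjamini-Hochberg adjusted p under 0.05 in limma, fitted over all genes. Cxcl15, Spink1, Ttr, Sult1d1 and Prss28 were called lower, so 5 of 9, where 6.58% of all genes were called lower. No member was called higher, where 4.5% of all genes were. Every deleted uterus lay below every control uterus in 6 of 9 members, these 5 and Prss29, against 11.6% of all genes, and above every control uterus in none, against 9.55%. The median change over the members was -0.855, beside 0.0075 over all genes. The members were chosen with earlier results of these data known, so these comparisons with all genes are descriptions and no test. With a bound of at least 8-fold lower, set after the values were seen, 4 genes of 19938 (0.0201%) were called, and they were Spink1, Cxcl15, Sult1d1 and the predicted gene Gm32592.

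**Figure D1:**
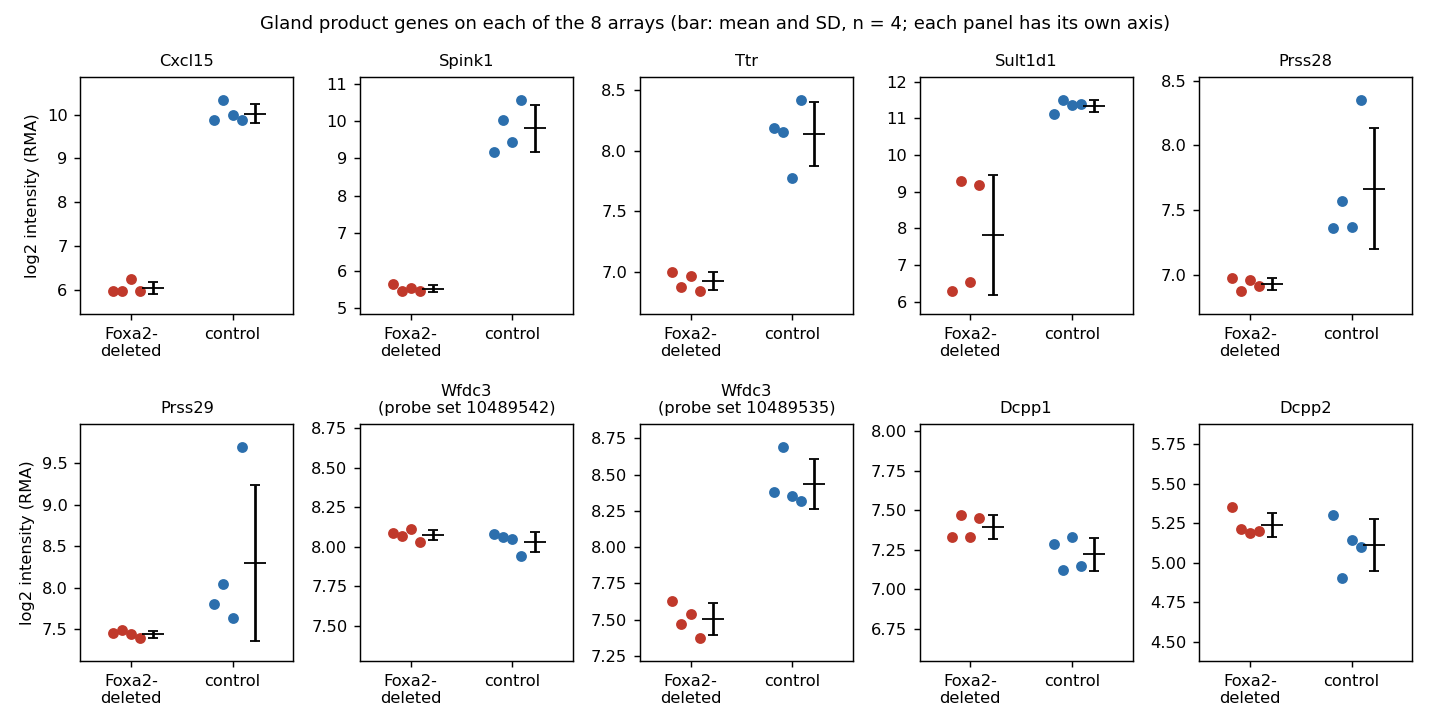
Log2 intensity (y axis) of each gland product gene on each array, with the 4 Foxa2-deleted uteri in red left of the 4 control uteri in blue, and black bars for the mean and SD (n = 4). Cxcl15, Spink1, Ttr, Sult1d1, Prss28 and Prss29 show no overlap between genotypes, and the Wfdc3 probe sets 10489542 and 10489535 differ from each other. Each panel has an axis of its own.

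Cxcl15, which encodes a chemokine that is known as lungkine and draws neutrophils in the mouse lung, had the smallest adjusted p of the members. It read 5.96, 5.97, 6.25 and 5.97 in deleted uteri, against 9.88, 10.33, 10 and 9.88 in control uteri. The groups lay far apart, and within each the arrays were close. The change was -3.98 (SE 0.11, 95% interval -4.24 to -3.73, adjusted p = 4.5e-07), which is 15.8-fold lower, and it was larger than the spread between uteri (SD 0.14 in deleted and 0.21 in control uteri). In the order of mouse genes Cxcl15 stands between the chemokine genes Cxcl3 and Cxcl1, which belong with it to the CXC family.

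Relatives of Cxcl15 were compared with it. Of 8 other genes of this chemokine group, which includes the receptor genes, 2 were called higher, none lower and 6 did not pass, with a median change of 0.22. The neutrophil chemokine receptor gene Cxcr2 rose by 2.33 (SE 0.43, adjusted p = 0.0154) and Cxcl3 by 0.25 (SE 0.05, adjusted p = 0.0250). Of the 8 single-array omissions, 2 ended the Cxcr2 call (adjusted p up to 0.0539) and 3 the Cxcl3 call. Cxcl1, a ligand of CXCR2, averaged 7.83 ± 0.17 in deleted and 7.63 ± 0.12 in control uteri and did not pass (adjusted p = 0.171). Cxcl5, another ligand of CXCR2, ran from 6.51 on deleted replicate 1 to 9.92 on deleted replicate 3, while the control uteri lay between 6.46 and 6.76. Cxcl2, of the same group, read 6.38, 7.37, 9.06 and 7.47 in deleted uteri, against 6.28, 6.33, 6.27 and 6.10 in control uteri. Every deleted uterus lay above every control uterus there, but Cxcl2 did not pass (change 1.32, SE 0.46, adjusted p = 0.0912). The difference between Cxcl15 and Cxcl3 on the same array changed by -4.23 between genotypes, and that between Cxcl15 and Cxcl1 by -4.18, each with a two-sided exact permutation p of 0.0286, the smallest that 4 against 4 arrays allow. Adjusted over the 9 such pairs compared here these p-values were 0.0367. All 9 pairs were chosen with the values known. Where a member already lay wholly apart from control, its own change largely fixed the p-value of its pair. The pair p-values therefore describe the differences and lend no further support.

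Spink1 encodes a Kazal-type inhibitor of trypsin that is secreted by the pancreas and other glands. It read 5.65, 5.46, 5.53 and 5.45 in deleted uteri, against 9.18, 10.04, 9.44 and 10.56 in control uteri. The deleted uteri were nearly level with each other, whereas the control uteri spread over more than 1 log2 unit. Its change of -4.28 (SE 0.26, 95% interval -4.87 to -3.69, adjusted p = 2.4e-04) was the largest of the members, at 19.5-fold lower.

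Another gene of the Spink family went the other way. Of 10 other Spink genes, Spink12 was called higher, none was called lower and 9 did not pass, with a median change of 0.04. Spink12, a further Kazal-type inhibitor gene, read 10.28, 7.82, 9.53 and 8.01 in deleted uteri, against 6.21, 6.16, 6.18 and 6.11 in control uteri, a change of 2.75 (SE 0.49, adjusted p = 0.0147). Its call was lost on leaving out either of 2 of the 8 arrays (adjusted p up to 0.0501). The difference between Spink1 and Spink12 on the same array changed by -7.03 between genotypes (two-sided exact permutation p = 0.0286, adjusted p = 0.0367 over the 9 pairs). Spink12 was picked as the Spink gene called higher, so this p-value gives no support of its own.

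Ttr encodes transthyretin, which carries thyroxine and, bound to retinol-binding protein, retinol. It read 7.0, 6.88, 6.97 and 6.84 in deleted uteri, against 8.19, 8.16, 7.78 and 8.42 in control uteri. All deleted uteri lay below the lowest control uterus. The change was -1.22 (SE 0.12, 95% interval -1.49 to -0.94, adjusted p = 0.0013), which is 2.32-fold lower. Of 9 genes measured for carriers, receptors and converting enzymes of thyroid hormone and retinol, 1 was called higher, none lower and 8 did not pass, with a median change of 0.09. The one called was Dio2, the deiodinase that makes active thyroid hormone from thyroxine, with 12.21, 11.23, 12.10 and 11.86 in deleted uteri and 9.99, 10.01, 10.19 and 10.08 in control uteri. It rose by 1.78 (SE 0.19, adjusted p = 0.0017) and stayed called with each array left out. Rbp4, the retinol-binding protein that travels with transthyretin, averaged 9.24 ± 0.54 in deleted and 9.03 ± 0.38 in control uteri (SD, n = 4 each; adjusted p = 0.613).

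Sult1d1, a cytosolic sulfotransferase gene whose mouse enzyme sulfates catecholamines, was the member in which deleted uteri differed most among themselves. It read 6.28, 9.28, 6.53 and 9.17 in deleted uteri, against 11.12, 11.50, 11.36 and 11.39 in control uteri. Deleted replicates 1 and 3 lay far below deleted replicates 2 and 4, and all of them lay below the control uteri. The change was -3.53 (SE 0.68, 95% interval -5.06 to -2.00, adjusted p = 0.0174), or 11.5-fold lower. Its SD was 1.63 in deleted and 0.16 in control uteri. The call was lost without control replicate 2, 3 or 4, with adjusted p of 0.0593, 0.0559 and 0.0570, while the change itself ran from -4.02 to -3.02 over all 8 omissions. Spink12, described above, was highest on the same deleted replicates 1 and 3 on which Sult1d1 was lowest, a correspondence picked out after the values were seen.

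Sult1d1 stands between Sult1b1 and Sult1e1 in gene order, and neither was called. Sult1b1 averaged 4.36 ± 0.09 in deleted and 4.31 ± 0.10 in control uteri, and the estrogen sulfotransferase gene Sult1e1 averaged 4.36 ± 0.10 in deleted and 4.36 ± 0.09 in control uteri (SD, n = 4 each). Both neighbours were dim in both genotypes, so that a fall in them could hardly have been seen. Of 10 other sulfotransferase genes measured, 1 was called lower, 1 higher and 8 did not pass, with a median change of 0.05. The phenol sulfotransferase gene Sult1a1 fell by 0.80 (SE 0.20, adjusted p = 0.0398), a call lost for 7 of the 8 single omissions, and Sult1c1 rose by 0.30 (SE 0.06, adjusted p = 0.0240) and lost its call for 4 of them.

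**Figure D2:**
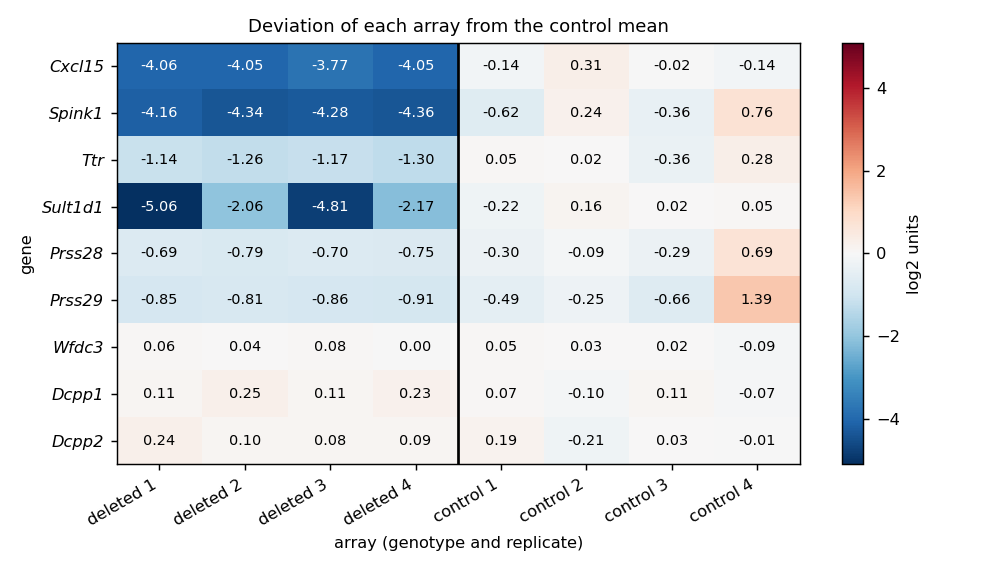
Deviation of every array from the control mean, in log2 units, for the 9 gland product genes (rows) and the 8 arrays (columns, Foxa2-deleted left of control). Cxcl15 and Spink1 are at -3.77 or lower on every deleted array, Sult1d1 splits into -5.06 and -4.81 against -2.06 and -2.17, and control replicate 4 stands out in Prss28 and Prss29 at 0.69 and 1.39.

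Promoter windows were read for these genes because Foxa2 was the gene deleted. Windows covered 250 bases before to 50 bases after the annotated start, taken from RefSeq on GRCm38.p6, and 7 of the 9 members had one that is used here, with Spink1 and Ttr not among them. The forkhead core was searched on both strands as TGTTTAC or TATTTAC, and also in the forms TGTTTGC or TATTTGC. The TATA box was searched likewise as TATAAA. Positions count bases from the start, negative before it. The windows of Cxcl15 (chr5:90794284-90794583, plus strand) and Sult1d1 (chr5:87568957-87569256, minus strand), the called members among the 7 with a match to the forkhead core, are shown 5′ to 3′ on the gene's strand, with matches to either motif in capitals. Those of Prss28 (chr17:25308396-25308695, plus strand) and Prss29 (chr17:25318404-25318703, plus strand), which are neighbours, are shown to compare them.
Cxcl15: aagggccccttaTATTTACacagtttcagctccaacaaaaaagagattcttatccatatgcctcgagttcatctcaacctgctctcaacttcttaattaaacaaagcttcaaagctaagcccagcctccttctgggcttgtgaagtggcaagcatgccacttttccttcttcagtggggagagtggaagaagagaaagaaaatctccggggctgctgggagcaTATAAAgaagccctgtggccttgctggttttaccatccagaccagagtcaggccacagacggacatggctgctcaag
Sult1d1: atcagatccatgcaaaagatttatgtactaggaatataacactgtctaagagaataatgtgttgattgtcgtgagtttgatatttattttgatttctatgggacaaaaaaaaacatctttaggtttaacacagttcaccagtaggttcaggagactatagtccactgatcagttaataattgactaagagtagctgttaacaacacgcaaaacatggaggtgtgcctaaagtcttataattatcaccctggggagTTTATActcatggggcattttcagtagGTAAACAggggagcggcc
Prss28: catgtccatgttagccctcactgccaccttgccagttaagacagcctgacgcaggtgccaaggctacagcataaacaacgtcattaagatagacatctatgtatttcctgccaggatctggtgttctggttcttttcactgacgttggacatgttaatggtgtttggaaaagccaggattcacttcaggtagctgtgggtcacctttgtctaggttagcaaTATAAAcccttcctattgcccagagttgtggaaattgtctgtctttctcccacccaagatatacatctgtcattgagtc
Prss29: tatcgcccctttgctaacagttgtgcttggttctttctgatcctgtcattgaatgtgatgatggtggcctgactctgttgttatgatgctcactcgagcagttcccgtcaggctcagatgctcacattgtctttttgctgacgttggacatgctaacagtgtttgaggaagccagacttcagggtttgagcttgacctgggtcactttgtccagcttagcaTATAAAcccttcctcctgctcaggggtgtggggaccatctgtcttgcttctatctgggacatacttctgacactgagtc
Cxcl15 held TATTTAC from position -238, Sult1d1 the reverse complement of TGTTTAC from position 33, and Dcpp1 the reverse complement of TGTTTGC from position -167. No forkhead match was in the windows of Prss28, Prss29, Wfdc3 or Dcpp2. At least 1 of the 4 forkhead forms was present in 13.5% of all 32851 windows. TATAAA stood on the gene's strand from position -27 in Cxcl15 and from position -29 in both Prss28 and Prss29, and Sult1d1 held its reverse complement from position 6, beside 13.6% of all windows with a match on either strand. No forkhead match overlapped a TATAAA match in these windows. Such matches are descriptions of the letters, and FOXA2 binding was not measured here.

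Prss28 and Prss29 encode the implantation serine proteinases 1 and 2, tryptase-like enzymes of the mouse uterine glands. They are direct neighbours on chromosome 17, beside Prss34 and the mast cell tryptase gene Tpsb2, and over 275 aligned bases their printed windows were 70.9% identical. Prss28 read 6.97, 6.87, 6.96 and 6.91 in deleted uteri, against 7.36, 7.57, 7.37 and 8.35 in control uteri. Prss29 read 7.45, 7.49, 7.44 and 7.39 in deleted uteri, against 7.81, 8.05, 7.64 and 9.69 in control uteri. In both genes the deleted uteri were almost level and below every control uterus, and control replicate 4 stood above the other control uteri.

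The change of Prss28 was -0.73 (SE 0.20, 95% interval -1.18 to -0.29, adjusted p = 0.0466), which is 1.66-fold lower. The call was lost without any 1 array other than control replicate 4 (adjusted p up to 0.102), after centring each array on its median (adjusted p = 0.0538), after cyclic loess (0.0507), with trended robust eBayes (0.0534) and with array weights (0.0621). Without control replicate 4 the change was -0.51 at an adjusted p of 0.0131. Prss29 did not pass, with a change of -0.85 (SE 0.39, 95% interval -1.74 to 0.03, adjusted p = 0.171), and without control replicate 4 its change was -0.39 at an adjusted p of 0.0676. Its exact permutation p was 0.0286, two-sided, the smallest possible. The difference between Prss28 and Prss29 on the same array changed by 0.12 between genotypes (two-sided exact permutation p = 1).

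Relatives of this pair were examined next. Of 11 other tryptase-like genes, 2 were called higher, none lower and 9 did not pass, with a median change of 0.08. Prss32 rose by 0.75 (SE 0.16, adjusted p = 0.0240) and Prss22 by 0.75 (SE 0.19, adjusted p = 0.0391), and each call was lost for 5 of the 8 single omissions. The neighbour Prss34 averaged 7.03 ± 0.04 in deleted and 7.08 ± 0.05 in control uteri and Tpsb2 averaged 8.20 ± 0.23 in deleted and 8.29 ± 0.11 in control uteri (SD, n = 4 each), with neither passing. The difference between Prss28 and Prss34 on the same array changed by -0.69 (two-sided exact permutation p = 0.0286, adjusted p = 0.0367 over the 9 pairs) and that between Prss29 and Tpsb2 by -0.76 (p = 0.0571, adjusted p = 0.0643, exact). Mast cells also make tryptases, and of their 8 markers 1 was called lower, 7 did not pass and none was called higher. The one called was the stem cell factor receptor gene Kit, which fell by 0.96 (SE 0.20, adjusted p = 0.0231; ended by 4 of the 8 omissions), and the mean level of the list lay between 7.56 and 7.96 in deleted and between 8.05 and 8.36 in control uteri. Its part in the Prss28 and Prss29 values was not tested.

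Wfdc3, a gene with whey acidic protein domains of the kind found in secreted protease inhibitors, gave different answers on its 2 probe sets. The brighter one, 10489542, which stands for the gene here, read 8.09, 8.07, 8.11 and 8.03 in deleted uteri, against 8.08, 8.06, 8.05 and 7.94 in control uteri. These overlap, and the change was 0.04 (SE 0.05, 95% interval -0.06 to 0.15, adjusted p = 0.557). The other, 10489535, read 7.63, 7.47, 7.54 and 7.37 in deleted uteri, against 8.38, 8.69, 8.35 and 8.32 in control uteri. There every deleted uterus lay below every control uterus, with a change of -0.93 (SE 0.09, adjusted p = 0.0013 with every probe set tested on its own, where 6.76% were called lower).

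The difference between the Wfdc3 probe sets changed by -0.97 between genotypes (two-sided exact permutation p = 0.0286, adjusted p = 0.0367 over the 9 pairs). The platform's annotation pairs 10489535 with a curated RefSeq transcript of Wfdc3, and 10489542 with a predicted transcript and cDNA clones only. Counting a gene as called when any of its probe sets was called gave 6 of 9 members. The share of all genes called under that rule was not computed, and of single probe sets 6.76% were called lower. Of 19 other genes of the family, 2 were called higher, 1 lower and 16 did not pass, with a median change of 0.03. Wfdc2, an epithelial secreted protein gene, rose by 0.77 (SE 0.14, adjusted p = 0.0152), Wfdc18 rose by 0.58 (SE 0.11, adjusted p = 0.0161), and Eppin, known in the epididymis and testis, fell by 0.25 (SE 0.06, adjusted p = 0.0284). Single-array omissions ended the Wfdc2 call for 1 array, the Wfdc18 call for 2 and the Eppin call for 4.

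Dcpp1 and Dcpp2 encode secreted proteins first described in the demilune cells of mouse salivary glands and also made by the mouse oviduct. Dcpp1 read 7.33, 7.47, 7.33 and 7.45 in deleted uteri, against 7.29, 7.12, 7.33 and 7.15 in control uteri. Dcpp2 read 5.35, 5.21, 5.19 and 5.20 in deleted uteri, against 5.30, 4.90, 5.14 and 5.1 in control uteri. In both the genotypes overlapped and neither passed. Both genes were among the dimmest 25% of all genes, so that a fall in them could be hard to see. Prss28 was also among the dimmest 25% and was called lower, at an adjusted p of 0.0466. The change of Dcpp1 was 0.17 (SE 0.06, 95% interval 0.03 to 0.32, adjusted p = 0.108) and that of Dcpp2 was 0.13 (SE 0.08, 95% interval -0.06 to 0.32, adjusted p = 0.317). The third gene of the cluster, Dcpp3, averaged 7.19 ± 0.08 in deleted and 7.11 ± 0.20 in control uteri (SD, n = 4 each; adjusted p = 0.580). The promoter windows of Dcpp1 and Dcpp2 were 96.9% identical over 295 aligned bases, and whether the probe sets tell copies this close apart was not tested.

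**Figure D3:**
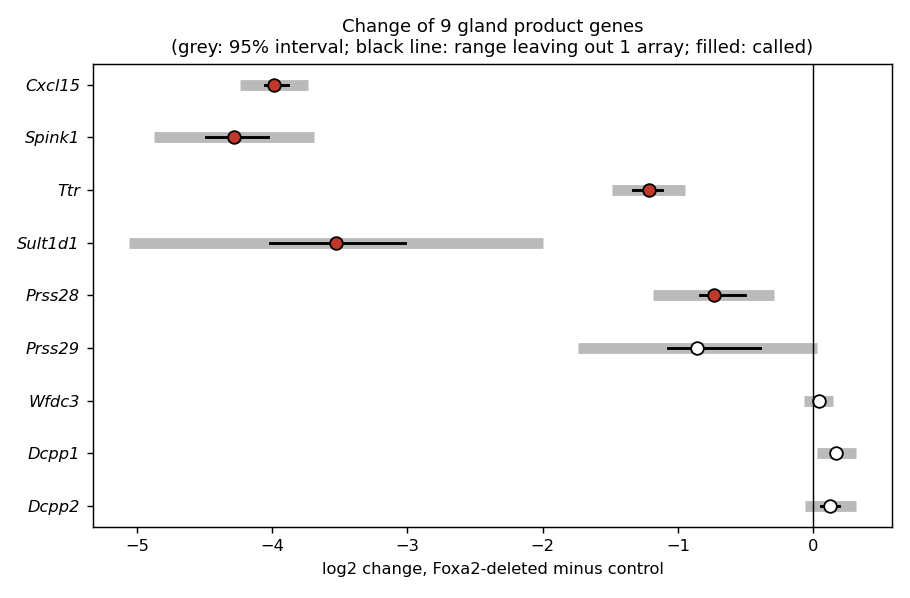
Log2 change, Foxa2-deleted minus control (x axis), of the 9 gland product genes (rows), with the 95% interval of the limma fit in grey, the range over leaving out 1 array at a time as a black line, and filled points for called genes. Cxcl15, Spink1, Ttr, Sult1d1 and Prss28 lie left of 0 with intervals that exclude it, and that of Prss29 reaches 0.03.

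The spread within a genotype ran against that of the array as a whole. In 8 of 9 members (88.9%) the SD was smaller in deleted than in control uteri, the exception being Sult1d1, whereas the same was true of 29.6% of all genes. The median SD over the members was 0.0754 in deleted and 0.213 in control uteri, and over all genes it was 0.103 in deleted and 0.0698 in control uteri. Spink1 and Cxcl15 averaged only 5.52 and 6.04 in deleted uteri, and the processing draws dim values together. All genes were not matched to the members by intensity, and the part of dimness in the spread was not tested. Among control uteri, replicate 4 was the highest in Spink1, Ttr, Prss28 and Prss29, and replicate 2 was the highest in Cxcl15 and Sult1d1.

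Likeness to Cxcl15 and to Sult1d1 was taken as the mean absolute difference, over the 8 arrays, between deviations from the control mean. The gene nearest to Cxcl15 was Spink1, at 0.37 log2 units, followed by Gm32592 at 0.57, Cyp3a57, a cytochrome P450 gene, at 0.65, Lrp2, which encodes the endocytic receptor megalin, at 0.71 and Sult1d1 at 0.80. Those nearest to Sult1d1 were Sbspon at 0.68, Gm32592 at 0.76, Nxpe2 at 0.78, Cxcl15 at 0.80 and Lrp2 at 0.81. On deleted replicates 1 to 4 Lrp2 deviated by -4.15, -0.40, -2.83 and -3.52, and so differed from Cxcl15 mainly on replicate 2. Gm32592 deviated by -3.13, -3.15, -3.01 and -2.85 there, without the split seen in Sult1d1.

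**Figure D4:**
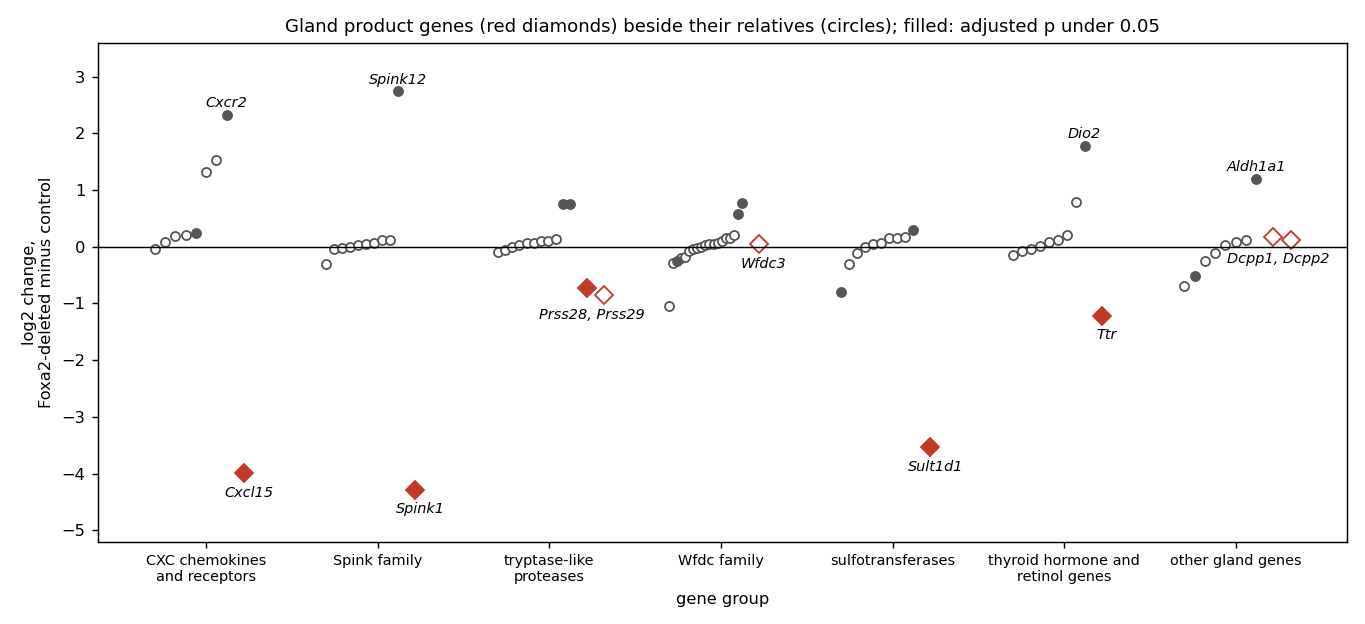
Log2 change, Foxa2-deleted minus control (y axis), of the gland product genes (red diamonds) beside other genes (circles), with filled symbols for an adjusted p under 0.05. The circles are genes of the same family or pathway, except that Dcpp1 and Dcpp2 stand beside the list of other gland genes. Cxcl15, Spink1 and Sult1d1 lie at -3.98, -4.28 and -3.53, below every relative drawn beside them, while Spink12 and Cxcr2 lie at 2.75 and 2.33.

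Other genes tied to the glands did not fall as a group. Of 8 such genes, Foxa2 was called lower, Aldh1a1 higher and 6 did not pass, with a median change of -0.03. The retinaldehyde dehydrogenase gene Aldh1a1, used as a marker of gland cells, read 10.14, 9.25, 9.80 and 10.79 in deleted uteri, against 8.78, 8.85, 8.75 and 8.80 in control uteri. Aldh1a1 rose by 1.20 (SE 0.27, adjusted p = 0.0269), and 5 of the 8 single-array omissions ended that call. Lif, the gland cytokine needed for implantation in mice, read 7.99, 8.31, 9.77 and 8.18 in deleted uteri, against 8.36, 8.46, 8.34 and 8.62 in control uteri. Deleted replicates 1, 2 and 4 thus lay below every control uterus, and deleted replicate 3 above all of them. Lif averaged 8.56 ± 0.82 in deleted and 8.45 ± 0.13 in control uteri (SD, n = 4 each) and did not pass (adjusted p = 0.836). Sox17, a transcription factor gene of the uterine epithelium, read 9.44, 10.35, 9.47 and 10.47 in deleted uteri, against 10.54, 10.71, 10.71 and 10.55 in control uteri, and did not pass (adjusted p = 0.0852). The other Foxa genes did not pass either, with Foxa1 at 7.65 ± 0.22 in deleted and 7.33 ± 0.05 in control uteri (SD, n = 4 each; adjusted p = 0.0677) and a change of 0.06 (adjusted p = 0.469) for Foxa3.

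Markers of other cell types also differed between the genotypes, and their part in the gland product values was not tested. Of 16 pan-epithelial genes 7 were called higher and none lower (median change 0.73), with a mean level of 10.29 to 11.17 in deleted and 9.83 to 9.98 in control uteri. The keratin genes Krt19 and Krt7 rose by 1.86 (SE 0.22, adjusted p = 0.0034) and 1.52 (SE 0.27, adjusted p = 0.0139). Elf3, an epithelial transcription factor gene, and Muc1, a mucin gene, rose by 1.77 (SE 0.25) and 1.57 (SE 0.25). Of 9 luminal epithelium markers measured, 4 were called higher and 1 lower, with a mean level of 8.98 to 9.41 in deleted and 8.43 to 8.49 in control uteri. Sprr2f, a cornified envelope gene, rose by 3.42 (SE 0.28), the ion channel subunit gene Gabrp by 3.13 (SE 0.51) and Crabp2, a retinoic acid carrier gene, by 1.05 (SE 0.25). Ihh, the epithelial hedgehog ligand gene, fell by 0.75 (SE 0.16, adjusted p = 0.0254). Of the other luminal markers, Wnt7a, a Wnt ligand gene, rose by 1.09 (SE 0.26, adjusted p = 0.0325), while Calb1, Lpar3, Vdr and Atp6v0d2 did not pass, with changes of -0.60, -0.79, -0.24 and 0.80. The luminal list was thus mixed, with its largest changes in Sprr2f and Gabrp. Of the 8 single-array omissions, 5 ended the call of Ihh and 6 that of Crabp2. Of 8 endothelium markers 6 were called lower and none higher, with a mean level of 9.68 to 10.37 in deleted and 10.71 to 10.82 in control uteri. The endothelial adhesion genes Pecam1, Cdh5 and Esam and the receptor gene Tie1 fell by 0.66, 0.79, 0.81 and 0.70, and the calls of Cdh5 and Esam were each ended by 3 omissions.

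The remaining marker lists moved less. Stroma had 1 of 9 called lower (Nr2f2, change -0.41), smooth muscle 1 of 8 called higher (Actg2, 0.51), leukocytes 2 of 8 called lower (Ncr1, -1.23, and Ptprc, -0.49), and oviduct and cilia 1 of 4 called lower (Dnah5, -0.48). Over all genes 6.58% were called lower and 4.5% higher. The leukocyte genes not called went both ways, from -0.40 (Adgre1) to 0.93 (S100a8, adjusted p = 0.0696). S100a8 lay above every control uterus on each deleted array. Those of oviduct and cilia ran from -0.44 (Ccdc39) to 0.13 (Tekt1). The median change was 0.01 for leukocytes and -0.19 for oviduct and cilia. Single-array omissions ended the call of Actg2 for 7 of the 8 arrays, that of Nr2f2 for 5 and that of Ptprc for 4. Their mean levels in deleted against control uteri were 11.22 to 11.68 against 11.68 to 11.70 for stroma, 11.74 to 12.27 against 11.67 to 11.85 for smooth muscle, 8.55 to 9.09 against 8.79 to 9.13 for leukocytes and 7.24 to 7.51 against 7.54 to 7.6 for oviduct and cilia. Spink1 and Ttr are also products of the pancreas and the liver, and of 7 marker genes of these organs none was called by limma (the smallest adjusted p were 0.176 for Apoa2 and 0.194 for Cela1), with a mean level of 7.47 to 7.6 in deleted and 7.43 to 7.55 in control uteri. Albumin (Alb) averaged 7.0 ± 0.13 in deleted and 6.90 ± 0.13 in control uteri (SD, n = 4 each; adjusted p = 0.404).

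**Figure D5:**
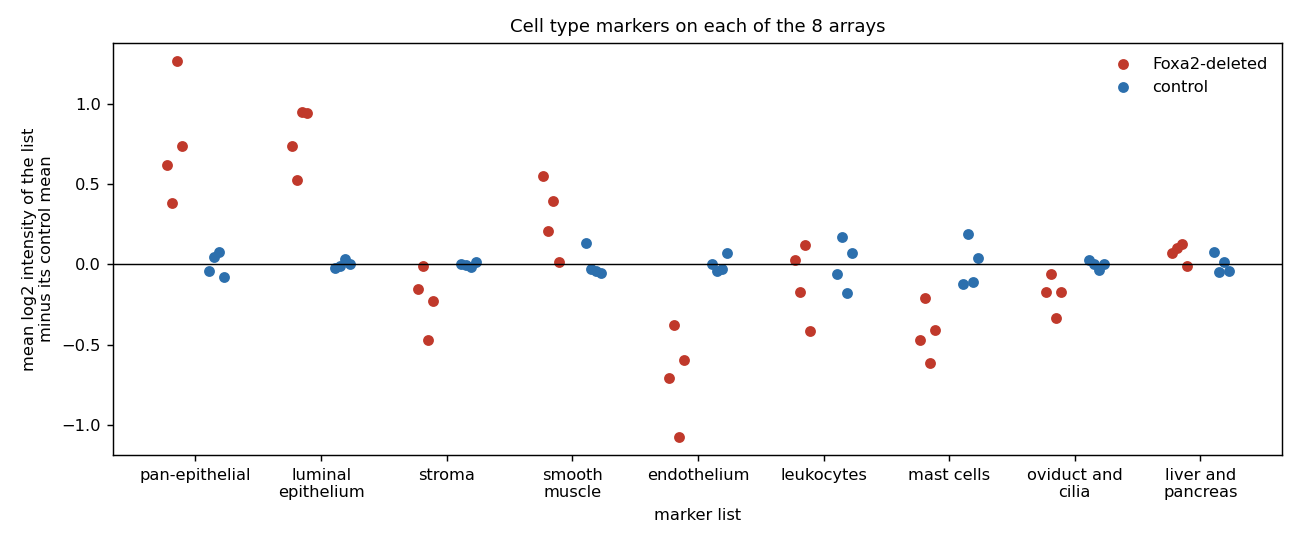
Mean log2 intensity of each marker list on each array minus its mean over the control uteri (y axis), for 9 lists (x axis), with Foxa2-deleted uteri in red left of control uteri in blue. The pan-epithelial and luminal lists lie higher, and the endothelium, mast cell and oviduct lists lower, on all 4 deleted arrays than on any control array.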

How the data were processed

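RNA of the whole uterus of 8 mice, 4 per genotype, went through Trizol extraction and a biotin labelling protocol starting from 150 ng, per the labels' protocols, with 1 array each. The deposited values are log2 intensities per probe set made by the authors with RMA (background correction, normalisation between arrays and a summary over probes); the submitters' processing notes name RMA and limma, without versions. RMA draws dim values together, so that changes of dim genes are understated, and no detection call was used here. The number of arrays limits the precision.

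Of 35556 probe sets 21789 had 1 gene symbol in GEO's platform annotation, 1621 several and 12146 none, and the last 2 kinds were not used. The brightest probe set on average stood for each of 19938 genes. The fit was limma 3.58.1 (R 4.3.3) on genotype with no covariate and no filter on dim genes, and adjusted p-values are limma's with Benjamini-Hochberg adjustment over all genes. Differences between 2 probe sets, and single genes, were compared by exact permutation over the 70 ways to split the arrays, two-sided. The p-values of the pairs are descriptions, as the pairs were chosen with the values known. Steps were tested on simulated data. The replicate numbers do not pair animals by the labels, which also give no batch.

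The members and the gene lists were chosen with earlier results of these data known. Besides the members, Foxa2 and Pgr, the text names up to 4 called genes of each list, those with the smallest adjusted p. Where none was called it names 2. It also names the 5 genes most like Cxcl15 and Sult1d1. Esr1, Hoxa10, Cxcl1, Cxcl2, Cxcl5, Rbp4, Sult1b1, Sult1e1, Prss34, Tpsb2 and Dcpp3 were chosen after their values were seen, for their place or role. So were Lif, Sox17, Alb and the remaining luminal markers. Adgre1, S100a8, Ccdc39 and Tekt1 were named after their values were seen, as ends of a range. Alternatives are listed in the closing section.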

Additional observations from a re-analysis of the deposited data

Results flagged for a closer look

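Among 90 groups of 4 arrays, covering both genotypes of 45 named genes with the 9 members among them, 5 had 1 array whose gap to the nearest of the others took up more of the group's range than Dixon's 95% critical value. Chance alone marks about 1 group in 20. Among the members, Cxcl15 read 6.25 on deleted replicate 3, against 5.96 to 5.97 on the other deleted arrays (gap 0.966 of the range), and Dcpp2 read 5.35 on deleted replicate 1, against 5.19 to 5.21. Neither array came near the control values of Cxcl15, and the other members were not marked. Foxa1 read 7.97 on deleted replicate 3, against 7.51 to 7.58. In control uteri Sprr2f, a cornified envelope gene, read 7.55 on replicate 4, against 7.96 to 8.04, and Dnah5, an axonemal dynein gene of cilia, read 7.62 on replicate 4, against 7.71 to 7.72.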

How the results depend on the processing

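Cxcl15, Spink1 and Ttr stayed called lower in every alternative that kept them, with changes from -4.06 to -3.88, -4.49 to -4.03 and -1.33 to -1.12. Prss28 stayed called in 4 of 16 alternatives and Sult1d1 in 15 of 18. Prss29, Dcpp1 and Dcpp2 were called in none. Wfdc3 turned to -0.93 (adjusted p = 0.0012) when the probe set with the largest variance stood for the gene. The count of members called was 5, and 3 to 4 with 1 array left out, the lower number without control replicate 2 or 3. Leaving out the lower 50% of genes kept only Sult1d1 and so gave 1, while leaving out the dimmest 25% kept 6 members and called 4. The share called among all the genes left, 9962 and 14950, is not given here, so these 2 counts stand without a background. With 1 array left out the count over all genes ran from 556 to 3059, against 2209 with all arrays, and that of list genes from 14 to 55, against 37. Of 37 other named genes that were called, 16 kept their call with each array left out. The replicate block gave 1062 called genes and 4 called members, losing Prss28 (adjusted p = 0.0718). Same-numbered arrays correlated from -0.05 to 0.06 in their deviations. Arrays of different number were not compared in this way, so this cannot exclude something shared by arrays of 1 number. The cause of these shifts was not tested. Quantile normalisation applied again, cyclic loess, trended robust eBayes, array weights and each probe set tested on its own moved no member other than Prss28 and Wfdc3 across the threshold. No detection call was used, so how far the deleted values of the called members lie above background is unknown.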
